A study of Mus musculus with 6 samples.

Results

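Scavenger receptors are cell surface proteins through which macrophages bind and take up modified lipoproteins, lipids, dying cells and debris. Here 7 genes chosen by name (Cd36, Msr1, Marco, Scarb1, Stab1, Cd14 and Cd68) were followed in microglia of a demyelinated lesion, out of 24984 genes in the deposited count table. Their symbols were matched in the FPKM table and joined by Ensembl identifier to the counts, and all 7 were found. Microglia are the resident macrophages of the brain. They were sorted from the corpus callosum of male C57BL/6J mice aged 10 weeks, after lysolecithin (LPC), a detergent-like lipid that dissolves myelin, had been injected stereotaxically. The headers of the deposited FPKM columns label the microglia of both time points wt, read here as wild type. The 2 groups were LPC day 3 and LPC day 10, of 3 libraries each (the design text names 3 mice per time point), and all mice carried the same kind of lesion. No uninjured or vehicle-injected library is in the sample list, so a value at day 10 is read against day 3 only. The labels give a gate on live cells that stained for CD11b, weakly for CD45 and for neither Ly6G nor CD3, which does not by itself separate microglia from every other macrophage.

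The family is named for function rather than for shared ancestry, and its classes are built from unrelated protein folds. MSR1 (SR-A1) and MARCO belong to class A, trimers with a collagen-like stalk that bind polyanions such as modified low-density lipoprotein and bacterial surfaces. CD36 and SCARB1 (SR-BI) belong to class B. CD36 takes up oxidised lipoprotein and long-chain fatty acids, and SCARB1 binds high-density lipoprotein and passes cholesteryl ester into the cell. Stabilin-1, encoded by Stab1, is a large receptor that clears the matrix protein SPARC from the extracellular space. CD14 is a lipid-anchored co-receptor that hands bacterial lipopolysaccharide to Toll-like receptor 4 and also binds dying cells. CD68 sits mostly in late endosomes and lysosomes and is a widely used marker of phagocytic macrophages. In a demyelinated lesion such receptors face myelin debris, which is rich in cholesterol and other lipids.

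Library totals ran from 5890081 to 9212197 counts. LPC day 10 replicate 3 stood apart: 15.4% of the 10535 tested genes were at 0 there, and 0.55% to 5.37% in the other libraries. Its share of counts in mitochondrial ribosomal RNA was 14.5%, with 9.32% in LPC day 10 replicate 1 and 27.1% to 32.9% in the rest. Fold changes that rest on LPC day 10 replicate 3 are therefore given with and without it. The spread within groups and the likeness between profiles are given with it only. Where 3 values stand for a time point, they are replicates 1, 2 and 3 in that order. Summed levels of the 10 microglial markers were 14950 to 16810 CPM (counts scaled to library size with TMM factors, the scale of every level below unless stated) at day 3. At day 10 they were 9379, 11670 and 25000 CPM.

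The 7 genes covered a wide range of levels, and none was called different between the time points. Cd68 was the most abundant per length of transcript, Stab1 and Cd14 came next, Msr1, Scarb1 and Cd36 were low, and Marco had no count in any library. Msr1 was the 1 gene whose day 10 libraries all lay below its day 3 libraries, at 7.47 ± 8.12 CPM against 54.3 ± 31.2 CPM (mean ± SD, n = 3 each), and 4.97% of all tested genes had that pattern. In edgeR's quasi-likelihood test over all 10535 genes, with a Benjamini-Hochberg adjusted p under 0.05 as the threshold, 0 of the 6 genes tested were called, and the lowest adjusted p among them was 0.784. At an unadjusted p under 0.05 there was 1 gene, Msr1, which was lower. Without LPC day 10 replicate 3 there were 2 such genes, Msr1 and Stab1, both lower, and again 0 called. DESeq2, limma-voom and limma-trend on the deposited FPKM also called 0 of them. Over all genes tested, 0.114% were called in the same fit, all of them higher, and 6.13% had an unadjusted p under 0.05 (4.76% higher and 1.38% lower). Without LPC day 10 replicate 3, 0.00821% of all genes were called, and 5.84% had an unadjusted p under 0.05 (3.42% higher and 2.42% lower). DESeq2 called 0.755% of all genes with, and 0.777% without, that library. Over all genes limma-voom called 0 higher and 1 lower, and each limma-trend fit on FPKM called 0 in either direction. With so few calls, 0 of the 6 in these limma fits says little about the scavenger receptor genes. No scavenger receptor gene had all its day 10 libraries above its day 3 libraries, which 3.47% of tested genes had (12.8% without LPC day 10 replicate 3). Marco did not pass the filter on low counts, so 6 of the 7 genes were tested.

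**Figure D1:**
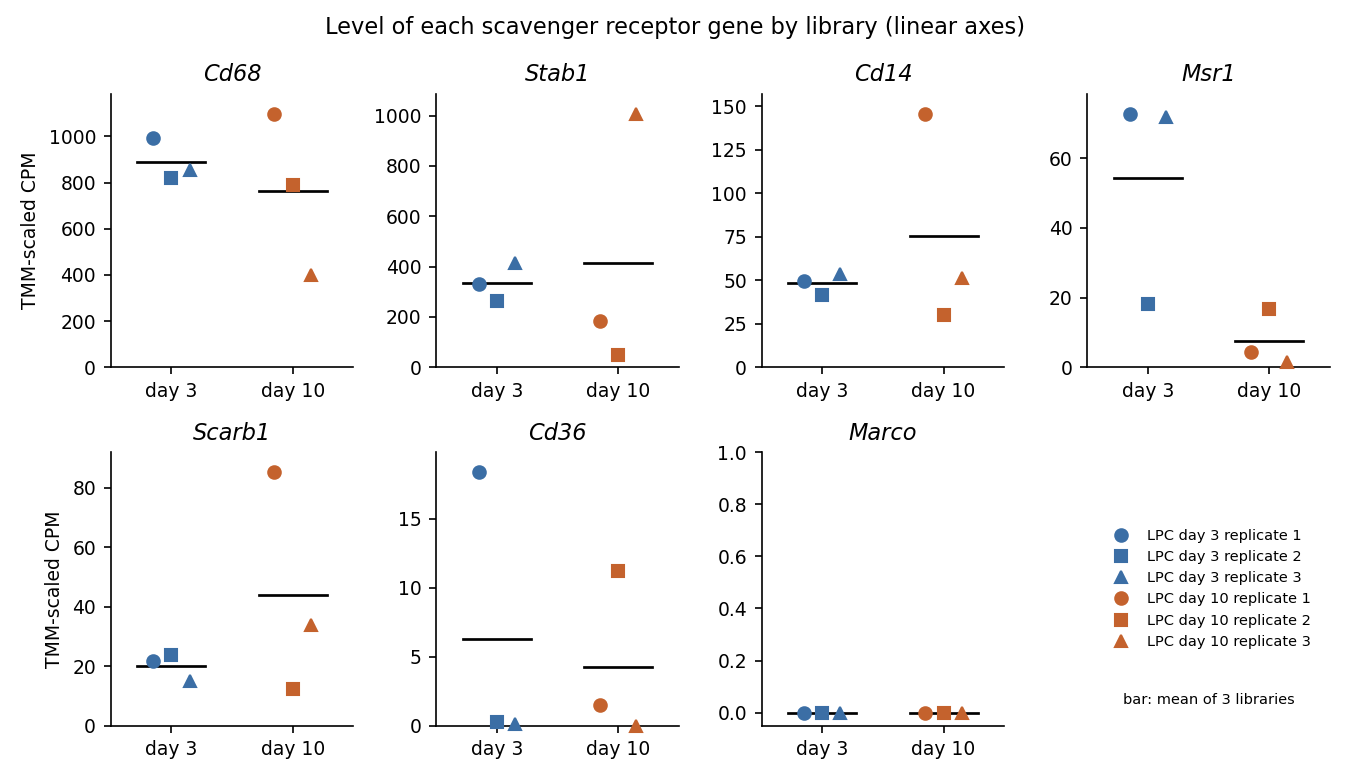
Level of each gene in each library, in TMM-scaled CPM on linear axes that start at 0 (Marco: at a little below 0, so that its points can be seen), with blue symbols for day 3, orange symbols for day 10, 1 symbol shape per replicate and a bar at the mean of 3 libraries. Msr1 has its 3 day 10 libraries at 1.34 to 16.7 CPM, below the 18.2 to 72.8 CPM of day 3, while the other detected genes overlap between the time points.

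Levels between genes were compared per kilobase of exon, as CPM divided by the summed exon length in GENCODE M21. Over the 6 libraries the mean was 657 CPM per kilobase for Cd68, 36.4 for Stab1, 35.7 for Cd14, 4.87 for Msr1, 3.76 for Scarb1, 1.46 for Cd36 and 0 for Marco. Cd68 exceeded Stab1 in all 6 libraries, with its lowest library (319 CPM per kilobase) above the highest library of Stab1 (97.8). In the same way the lowest library of Cd14 (17.2 CPM per kilobase) lay above the highest of Msr1 (11.5). The neighbours Stab1 and Cd14, Msr1 and Scarb1, and Scarb1 and Cd36 were not separated: the first of each pair was the higher in 4 of 6 libraries. Cd68 ranked 22nd to 34th of all genes per kilobase in 5 libraries and 141st in LPC day 10 replicate 3. The deposited FPKM values, made by the authors with gene lengths of their own, gave group means within 1 SD of these levels for all 12 levels compared. That is a loose limit where the SD is wide, as for Stab1 at day 10 (40.2 ± 50.4 CPM per kilobase). From day 3 to day 10 the Stab1 mean went from 32.6 to 40.2 CPM per kilobase, but from 32.6 to 30.8 in FPKM. The Cd14 mean at day 10 was 43.6 CPM per kilobase and 57.8 in FPKM.

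**Figure D2:**
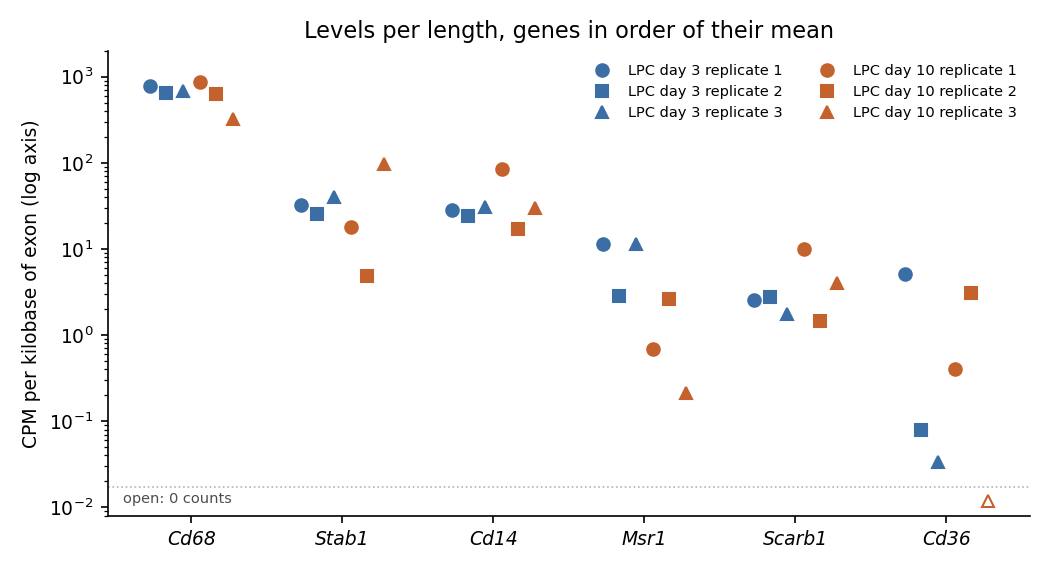
Level per kilobase of exon on a log axis for the 6 detected genes, in order of their mean, with 1 symbol per library and an open symbol below the dotted line for a count of 0. Cd68 lies between 319 and 874 CPM per kilobase, above every library of every other gene, and Cd36 runs from a count of 0 to 5.12 CPM per kilobase.

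Msr1 encodes the class A receptor for modified lipoproteins (ENSMUSG00000025044, GRCm38 chromosome 8, 39581685 to 39642673, minus strand). It had 72.8, 18.2 and 71.8 CPM on day 3 against 4.40, 16.7 and 1.34 CPM on day 10, from 741, 128, 595, 42, 155 and 5 counts. Every day 10 library was thus below every day 3 library, and LPC day 3 replicate 2 and LPC day 10 replicate 2 were the nearest across the groups. The gap between the groups was small: the 95% Poisson interval for counting error ran from 15.2 to 21.7 CPM for LPC day 3 replicate 2 and from 14.2 to 19.5 CPM for LPC day 10 replicate 2, and these overlap. Such intervals cover counting error only and leave out differences between mice and between libraries. They are too narrow even for counting error where reads were copied by PCR and do not come from separate molecules. The log2 fold change, day 10 against day 3, was −2.85 ± 1.37 (SE, n = 3 per group), with a 95% interval of −5.61 to −0.09 and an edgeR adjusted p of 0.784. The exact two-sided permutation test over the libraries gave p = 0.1, the smallest that 3 against 3 libraries allow. Without LPC day 10 replicate 3 the log2 fold change was −2.38 ± 1.11 (edgeR adjusted p = 0.825). It stayed negative when any 1 library was left out, at −4.23 to −2.38. LPC day 10 replicate 2, left out, moved it the most (edgeR adjusted p = 0.423). The authors' deposited table gives a log2 fold change of −3.18 in the same direction, with an unadjusted p of 0.0186. In bulk libraries fewer cells that express a gene and less RNA per cell cannot be told apart.

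Marco encodes the other class A receptor, known from macrophages of the spleen, lung and liver (ENSMUSG00000026390, chromosome 1, 120474538 to 120505024, minus strand). It had 0 counts in each of the 6 libraries. A count of 0 allows a level of up to 0.295, 0.427 and 0.362 CPM on day 3 and of up to 0.314, 0.323 and 0.807 CPM on day 10, taking 3 counts as the limit. In the count table, 21.4% of genes had no count in any library. Marco was thus not detectable at this depth, and no change can be given.

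Cd36 encodes the class B receptor for oxidised lipoprotein and fatty acids (ENSMUSG00000002944, chromosome 5, 17781690 to 17888801, minus strand). It had 187, 2 and 1 counts in LPC day 3 replicates 1, 2 and 3 and 14, 104 and 0 counts in LPC day 10 replicates 1, 2 and 3. As levels these were 18.4, 0.285 and 0.121 CPM on day 3 against 1.46, 11.2 and 0 CPM on day 10. LPC day 3 replicate 1 and LPC day 10 replicate 2 were thus the high libraries, LPC day 10 replicate 1 lay between, and the other 3 were below the limit that 3 counts set. The log2 fold change was −0.56 ± 2.06 (SE, n = 3, 95% interval −4.72 to 3.60, edgeR adjusted p = 0.999). Leaving out LPC day 10 replicate 3 gave 0.01. Its direction rested on LPC day 3 replicate 1, without which it was 4.30 (edgeR adjusted p = 0.962), while without LPC day 10 replicate 2 it was −3.03 (edgeR adjusted p = 0.947). Endothelial cells also express Cd36. The 6 endothelial markers in the count table summed to 4.13 to 24.9 CPM at day 3 and to 56.0, 80.4 and 2.15 CPM on day 10, and Cldn5, Esam and Tek were at 0 throughout. Most of the sum in LPC day 10 replicates 1 and 2 was Flt1 (54.3 and 74.05 CPM). In those libraries Flt1 was above all its day 3 levels, and the other markers with counts, Cdh5 and Pecam1, were not. Cdh5 had 6.29, 0.142 and 10.7 CPM on day 3 against 0, 0.215 and 0.269 CPM on day 10. Pecam1 had 7.37, 1.71 and 0 CPM on day 3 against 1.68, 6.13 and 0.538 CPM on day 10. Within day 10 Pecam1 had the same order as Flt1. Its highest libraries, LPC day 3 replicate 1 and LPC day 10 replicate 2, were also those of Cd36. Cdh5 was highest in LPC day 3 replicate 3, where Cd36 had 0.121 CPM. The library with the highest sum, LPC day 10 replicate 2, had the next to highest Cd36 (11.2 CPM), and LPC day 10 replicate 3 was lowest in both. LPC day 3 replicate 1, the highest in Cd36, had a sum of 24.9 CPM, the highest of day 3, and LPC day 10 replicate 1, with a sum of 56.0 CPM, had 1.46 CPM of Cd36. The part of endothelial cells in the level of Cd36 was not tested.

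Scarb1 encodes the class B receptor for high-density lipoprotein (ENSMUSG00000037936, chromosome 5, 125277087 to 125341094, minus strand). It had 21.7, 23.6 and 15.1 CPM on day 3 against 85.2, 12.4 and 33.9 CPM on day 10. The day 3 libraries lay close together, and the day 10 libraries held both the lowest and the highest level. LPC day 10 replicate 1 was 2.51 times the next highest library. The log2 fold change was 1.12 ± 1.25 (SE, n = 3, 95% interval −1.41 to 3.65, edgeR adjusted p = 0.999). Leaving out LPC day 10 replicate 3 gave 1.23 ± 1.04. Without LPC day 10 replicate 1 it was 0.19 (edgeR adjusted p = 0.999).

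Stab1 encodes the SPARC-clearing receptor stabilin-1 (ENSMUSG00000042286, chromosome 14, 31139013 to 31168641, minus strand). It had 329, 265 and 413 CPM on day 3 against 183, 49.5 and 1007 CPM on day 10. LPC day 10 replicates 1 and 2 lay below all day 3 libraries, and LPC day 10 replicate 3 lay above them, at 2.44 times the next highest library. Among all tested genes 25.6% had their highest level in that library. The log2 fold change was 0.30 ± 0.83 (SE, n = 3, 95% interval −1.38 to 1.98, edgeR adjusted p = 0.999), and it turned to −0.04 with upper-quartile scaling and to −0.08 with library size only. Without LPC day 10 replicate 3 it was −1.57 ± 0.63 (95% interval −2.87 to −0.26, unadjusted p = 0.0210, edgeR adjusted p = 0.795). In that fit 2.42% of genes had an unadjusted p under 0.05 and a lower level at day 10, and 7.7% had both day 10 libraries below all day 3 libraries. The summed microglial markers also lay below all day 3 libraries in LPC day 10 replicates 1 and 2, and above them in replicate 3. Without replicate 3, 9 of the 10 microglial markers had a negative log2 fold change (median −0.80, over all genes −0.09). With all libraries 4 of the 10 did. For Stab1 the authors' deposited table gives a log2 fold change of −0.88, day 10 against day 3, with an unadjusted p of 0.402. Exons of Stab1 share 112 bp (1.09% of its exon length) with exons of Nt5dc2 on the other strand, which had 49 counts in all libraries together. Sparc itself, the matrix protein that stabilin-1 binds, had 3282 to 4494 CPM on day 3 against 3166 to 4995 CPM on day 10 (log2 fold change 0.09 ± 0.60, edgeR adjusted p = 0.999).

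Cd14 encodes the co-receptor for lipopolysaccharide (ENSMUSG00000051439). It had 49.5, 41.3 and 53.7 CPM on day 3 against 146, 29.7 and 51.4 CPM on day 10. The day 3 libraries were within 1.3-fold of each other, and LPC day 10 replicate 1 was 2.71 times the next highest library. The log2 fold change was 0.65 ± 1.04 (SE, n = 3, 95% interval −1.46 to 2.75, edgeR adjusted p = 0.999). Without LPC day 10 replicate 1 it turned to −0.26 (edgeR adjusted p = 0.998). Leaving out LPC day 10 replicate 3 instead gave 0.82 ± 0.79.

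Cd68 encodes the lysosomal glycoprotein macrosialin (ENSMUSG00000018774, chromosome 11, 69664213 to 69666153, minus strand). It had 992, 820 and 856 CPM on day 3 against 1098, 787 and 401 CPM on day 10. Of the 6 libraries 5 lay between 787 and 1098 CPM, and LPC day 10 replicate 3 was lower. In that library 41.4% of all tested genes had their lowest level. The log2 fold change was −0.22 ± 0.69 (SE, n = 3, 95% interval −1.62 to 1.18, edgeR adjusted p = 0.999). Leaving out LPC day 10 replicate 3 gave 0.05 ± 0.48 (95% interval −0.94 to 1.05). The interval without that library leaves room for a change of about 1 log2 unit in either direction.

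**Figure D3:**
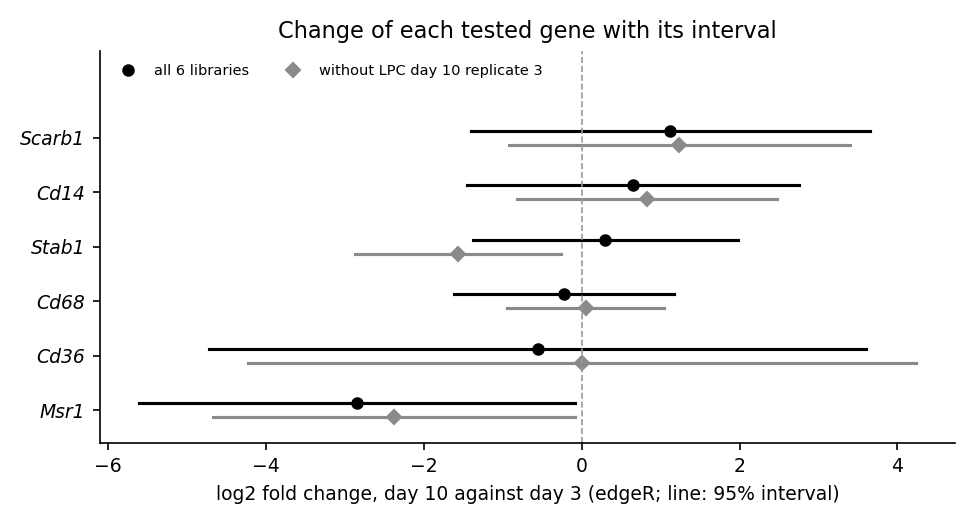
Log2 fold change, day 10 against day 3, of the 6 tested genes with its 95% interval, from edgeR with all 6 libraries (black circles) and without LPC day 10 replicate 3 (grey diamonds). The intervals of Msr1 end just below 0 in both fits, at −0.09, and that of Stab1 lies below 0 only without LPC day 10 replicate 3, with 0 genes called after adjustment over all genes.

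The genes differed in how much they varied between libraries of 1 time point, a spread that holds differences between mice and in library quality alike. The SD of log2 CPM within groups, pooled over both time points, was 0.53 for Cd68, 0.83 for Cd14, 1.00 for Scarb1, 1.45 for Msr1, 1.56 for Stab1 and 2.95 for Cd36, and its median over all tested genes was 1.73. Cd68 was among the least variable genes, with 4.41% of tested genes below it, and Cd36 among the most variable, with 95.7% below it. For Cd14, Scarb1, Msr1 and Stab1 the share below was 14.2%, 21.0%, 38.2% and 42.6%. Cd68 had 1493 to 10490 counts per library. Among the tested scavenger receptor genes this was the most in every library but LPC day 10 replicate 3, where Stab1 had 3743. Cd36 had 0 to 187, while Stab1 had more counts (460 to 3743) than the less variable Cd14 and Scarb1 in every library. The part of counting depth in this order was not tested.

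**Figure D4:**
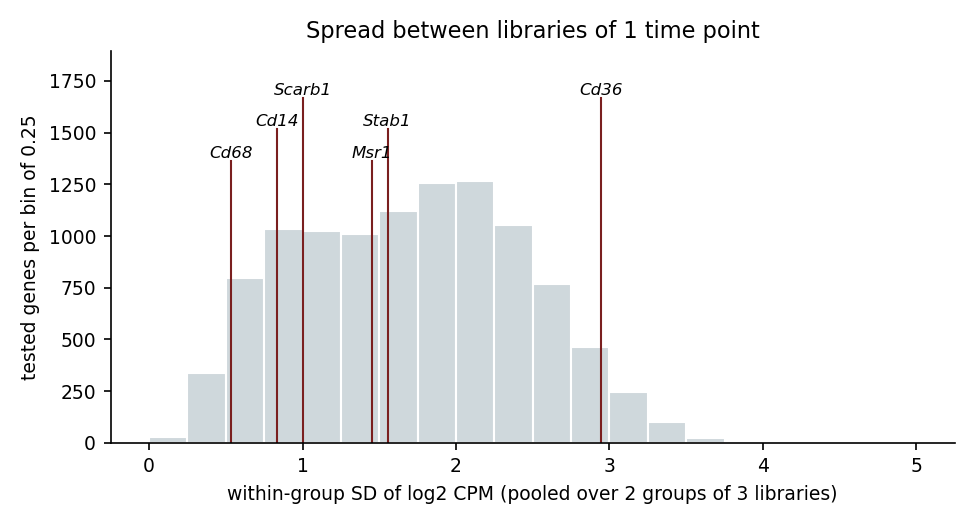
Number of tested genes per bin of the within-group SD of log2 CPM (grey bars, 10535 genes) with the SD of each tested scavenger receptor gene as a vertical line, its height chosen for the label only. Cd68 at 0.53 and Cd36 at 2.95 lie near opposite ends of the distribution.

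The make-up of the set also differed between libraries. The 7 genes summed to 1484, 1168 and 1409 CPM on day 3 and to 1518, 907 and 1495 CPM on day 10. Cd68 made up 60.7% to 70.2% of that sum at day 3. At day 10 its share was 72.3% and 86.8% in replicates 1 and 2 and 26.9% in replicate 3, where Stab1 held 67.3%. These shares do not depend on the scaling of the libraries, since they are ratios within a library. Per kilobase, Cd68 was 16.9 to 25.3 times Stab1 at day 3, and 49.0, 130 and 3.27 times Stab1 in LPC day 10 replicates 1, 2 and 3. The day 10 ratios were thus either above or below all those of day 3.

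Likeness between profiles was measured as the root mean square difference of log2 CPM over the 6 libraries, each gene centred on its own mean. Among the scavenger receptor genes Cd14 and Scarb1 were nearest, at 0.41 log2 units. Of 7861 genes with a mean of at least 5 CPM, 6 were nearer to Scarb1 than Cd14 was, and 31 were nearer to Cd14 than Scarb1 was. Both peaked in LPC day 10 replicate 1 and were lowest in LPC day 10 replicate 2. That first library had the lowest share of mitochondrial ribosomal RNA (9.32%), and the part of this share in the levels of Cd14 and Scarb1 was not tested. Cd68 was the next nearest to Cd14, at 0.69, with 3.94% of genes nearer. Cd36 lay farthest from the others, at 2.20 to 3.41 from each of them, and 23.1% or more of genes were nearer to it than any other scavenger receptor gene was. The median distance of the 7861 genes from Cd36 was itself wide, at 2.61. The genes nearest of all were Eef2, a translation elongation factor, Pik3ap1 and the lysosomal mannosidase gene Man2b1 for Cd14 (0.21 to 0.27), and Sh3tc1, Adap2os and Clip2 for Scarb1 (0.26 to 0.30). For Cd68 they included Ywhae and Ankfy1 (0.16 each), and for Stab1 they were Rnf40, Abhd2 and the tubulin gene Tuba1a (0.32 to 0.41). For Msr1 they were Ndufa7, Timm8b and Pex2 (0.48 to 0.57), and for Cd36 Ifi208, Ccdc90b and RP23-238C13.2 (0.60 to 0.73). Ifi208, an interferon-inducible gene, had 43.7, 0.712 and 0 CPM on day 3 against 2.30, 22.6 and 0.269 CPM on day 10, high in the same libraries as Cd36.

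**Figure D5:**
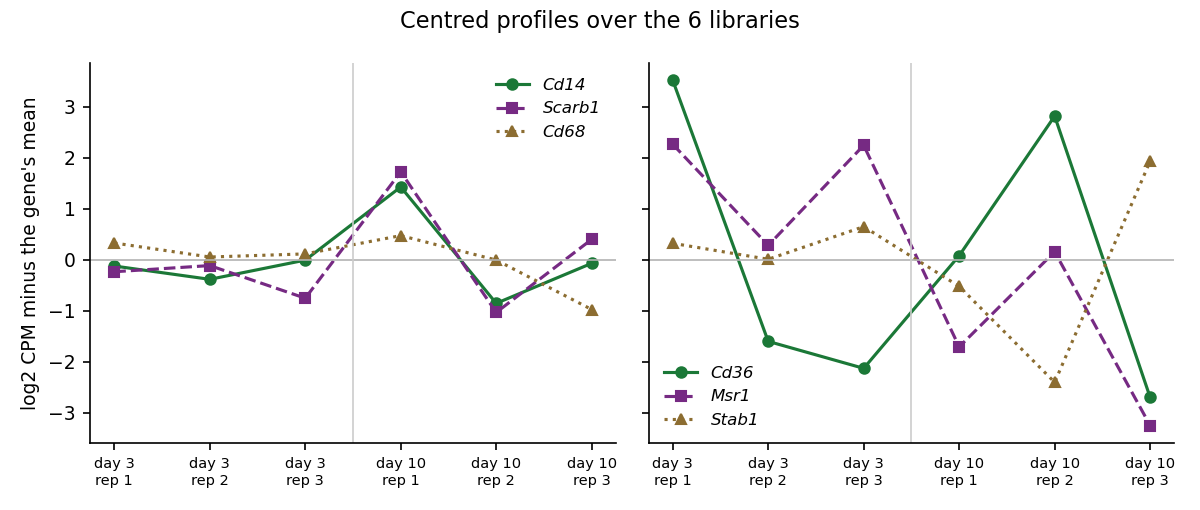
Log2 CPM of each gene minus its mean over the 6 libraries, with Cd14, Scarb1 and Cd68 on the left and Cd36, Msr1 and Stab1 on the right. Lines join libraries only to make a gene's points easy to follow. Cd14 and Scarb1 keep within a root mean square of 0.41 of each other, while Cd36 is 2.20 or more from every other gene shown.

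Other scavenger receptors were read from a list of 20 genes, of which 18 were in the count table and 7 passed the filter. With all libraries 3 of the 7 had a positive and 4 a negative log2 fold change, the median was −0.62 against 0.00 over all genes tested, and 0 were called in either direction by edgeR (1 lower and 0 higher at an unadjusted p under 0.05). That gene was Mrc1, which encodes the mannose receptor CD206. It had 19.8, 93.2 and 75.9 CPM on day 3 against 5.55, 3.88 and 6.19 CPM on day 10. All day 10 libraries, LPC day 10 replicate 3 included, thus lay below all day 3 libraries. Over all tested genes 4.97% had that pattern, and 1.38% were lower at an unadjusted p under 0.05. The log2 fold change of Mrc1 was −3.60 ± 1.34 (edgeR unadjusted p = 0.0107, adjusted p = 0.480), and −3.77 without LPC day 10 replicate 3 (edgeR adjusted p = 0.766). Mrc1 marks border-associated macrophages, which lie in the meninges and around vessels. The 8 markers of these cells in the count table summed to 64.0 to 146 CPM at day 3 and to 132, 46.2 and 9.14 CPM at day 10, with Mrc1 itself among them. Siglec1, the most abundant of them when all libraries are summed, though below Mrc1 in LPC day 3 replicates 2 and 3 and LPC day 10 replicate 3, had 28.2 to 53.0 CPM on day 3 against 126, 39.0 and 2.96 CPM on day 10. Cd163 had 36 counts in all, and Lyve1, listed at 0 FPKM, had no entry among the counts analysed. The part of such cells in the levels of Msr1 and Mrc1 was not tested. Olr1, which encodes the lectin-like receptor for oxidised lipoprotein, had 11.4, 88.1 and 1.45 CPM on day 3 against 14.3, 9.26 and 0.269 CPM on day 10 (log2 fold change −2.07, edgeR adjusted p = 0.999). Clec7a, which encodes the beta-glucan receptor dectin-1, had 37.6, 78.0 and 21.2 CPM on day 3 against 92.3, 194 and 47.3 CPM on day 10 (log2 fold change 1.28, edgeR adjusted p = 0.999; leaving out LPC day 10 replicate 3, 1.62, edgeR adjusted p = 0.825).

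Partners of CD14 in Toll-like receptor signalling made up a list of 15 genes, of which 14 were tested. Of these 7 had a positive and 7 a negative change with a median log2 fold change of 0.22, and 3 and 11 without LPC day 10 replicate 3 with a median of −0.55 (over all genes −0.09). In both fits 0 were called by edgeR, and 1 gene, Ly96, was lower at an unadjusted p under 0.05. Over all tested genes the share lower at that limit was 1.38%, and 2.42% without LPC day 10 replicate 3. Ly96 encodes MD-2, the protein that binds lipopolysaccharide beside Toll-like receptor 4. It had 91.3, 169 and 164 CPM on day 3 against 4.50, 60.7 and 5.38 CPM on day 10. Its day 10 libraries all lay below its day 3 libraries, a pattern that 4.97% of all tested genes had. The log2 fold change of Ly96 was −2.58 ± 1.09 (edgeR adjusted p = 0.627), and −2.14 leaving out LPC day 10 replicate 3 (edgeR adjusted p = 0.797). The kinase gene Syk and the adaptor gene Traf6 had log2 fold changes of 1.20 and 1.10 with peak levels of 633 and 543 CPM in LPC day 10 replicate 3, and of −0.56 and −0.67 without it (edgeR adjusted p at least 0.999 in each case).

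Genes of lipid uptake, storage and efflux made up a list of 20, of which 19 were in the count table and 14 were tested. With all libraries 8 were positive and 6 negative, the median log2 fold change was 0.26, and 0 were called by edgeR (at an unadjusted p under 0.05, 3 higher and 1 lower). The genes of smallest p were Npc2 and Lipa, which encode a lysosomal cholesterol carrier and the lysosomal acid lipase. Npc2 had 137 to 240 CPM on day 3 against 374, 240 and 2235 CPM on day 10. Its log2 fold change was 2.21 ± 0.81 (edgeR adjusted p = 0.470), and leaving out LPC day 10 replicate 3 gave 0.55. Lipa had 176 to 250 CPM on day 3 against 152, 340 and 1852 CPM on day 10. Its log2 fold change was 1.85 (edgeR adjusted p = 0.673), and 0.16 with that library left out. Without that library the smallest p values were those of Lpl, which encodes lipoprotein lipase, and Fabp5, which encodes a fatty acid carrier. Lpl had 486, 246 and 210 CPM on day 3 against 661, 2407 and 170 CPM on day 10. Its log2 fold change was 2.27 in that fit (edgeR adjusted p = 0.433) and 1.78 with all libraries (edgeR adjusted p = 0.687). Fabp5 had 0, 1 and 0 counts on day 3 against 17.3, 17.0 and 0.538 CPM on day 10 (edgeR adjusted p = 0.709 without replicate 3). It did not pass the low-count filter with all libraries. Without replicate 3 it passed only through the day 10 libraries, where it was high, so its small p carries no weight. Pparg, which encodes a nuclear receptor known to drive Cd36 in macrophages, had no count in any library.

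Ligands of the receptors were read from a list of 10 genes, 7 of them tested, with 5 positive and 2 negative changes, a median log2 fold change of 0.61 and 0 called by edgeR (at an unadjusted p under 0.05, 1 higher and 1 lower). Apoe, which encodes a lipoprotein component, had 135, 152 and 398 CPM on day 3 against 2989, 1009 and 110 CPM on day 10, lowest in LPC day 10 replicate 3. Its log2 fold change was 2.59 ± 0.85 (edgeR adjusted p = 0.313), and 3.09 ± 0.58 without that library (edgeR adjusted p = 0.0700). Apob, which encodes the main protein of low-density lipoprotein, had 15.5, 34.6 and 17.6 CPM on day 3 against 1.88, 2.80 and 0 CPM on day 10 (log2 fold change −3.81 ± 1.87, edgeR adjusted p = 0.809). Csf1, which the list also held although its receptor is not a scavenger receptor, had 116 to 208 CPM on day 3 against 651, 337 and 8.88 CPM on day 10 (log2 fold change 0.93, edgeR adjusted p = 0.999; leaving out LPC day 10 replicate 3, 1.47, edgeR adjusted p = 0.766). Of 15 adaptor, kinase and membrane partner genes 11 were tested, 5 positive and 6 negative, with a median log2 fold change of −0.56 and 0 called (0 at an unadjusted p under 0.05). In that list Itgb1 and the tetraspanin genes Cd81 and Cd9 had log2 fold changes of −0.89, −0.67 and 0.38 (edgeR adjusted p = 0.999 each), and Gulp1 and Pdzk1 had no counts. Leaving out LPC day 10 replicate 3 gave −0.81, −1.06 and 0.82 for Itgb1, Cd81 and Cd9 (edgeR adjusted p at least 0.856).

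Markers of other cells were low beside the microglial sum of at least 9379 CPM. A list's leading gene is the one with the most CPM summed over the libraries. All 5 T cell markers were listed at 0 FPKM and had no entry among the counts analysed, so no depth can be set beside those zeros. The 6 monocyte markers in the count table summed to 13.7 to 160 CPM at day 3 and 18.6 to 198 CPM at day 10, most of it Fn1 in each library. Neutrophil markers summed to 111 CPM in LPC day 3 replicate 3, led by S100a8 at 55.0 CPM, and to at most 0.269 CPM elsewhere. Dendritic cell markers (led by Zbtb46) summed to at most 28.3 CPM and B cell markers (led by Cd79b) to at most 30.3 CPM. Astrocyte markers, led by Slc1a3, summed to 31.8 to 129 CPM at day 3 and 41.4 to 67.6 CPM at day 10. Oligodendrocyte markers summed to 26.6 to 34.3 CPM at day 3, most of it Cnp, and to 114, 72.2 and 15.6 CPM at day 10, where Mbp was the highest in each library. Mbp, which encodes myelin basic protein, had 0.884, 10.2 and 0.241 CPM on day 3 against 62.3, 41.4 and 13.2 CPM on day 10. Its day 10 libraries thus all lay above its day 3 libraries, a pattern that 3.47% of all tested genes had. The log2 fold change of Mbp was 3.36 ± 1.60 (edgeR unadjusted p = 0.0426, adjusted p = 0.774), and 3.73 leaving out LPC day 10 replicate 3 (edgeR adjusted p = 0.766). Cnp had 30.7, 16.4 and 24.2 CPM on day 3 against 41.5, 30.7 and 1.61 CPM on day 10 (log2 fold change 0.05, edgeR adjusted p = 0.999). Pericyte and smooth muscle markers, led by Cspg4, summed to at most 13.2 CPM at day 3 and to 104, 34.2 and 2.42 CPM at day 10, with 5 of 7 at 0, and neuron markers, led by Rbfox3, to at most 10.9 CPM. The endothelial sum was led by Flt1. The part of these cells in the levels of the scavenger receptor genes was not tested.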

How the data were processed

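The count table deposited by the authors gives whole-number counts for 24984 Ensembl genes, 5349 of which have none in any library. The submitters' processing notes name GRCm38, the aligner STAR (2.5.2a), and limma (3.30.8) and edgeR (3.16.5) in R (3.3.2). The counting program, annotation release and strand setting were not given in the sources read. Deposited FPKM columns are named wt mglia with the time point, carry no replicate number and were used by group. The authors' normalized table holds log2 values, and their comparison table log2 fold changes (day 3 minus day 10, sign turned here) with unadjusted p-values. Positions, exon overlaps and exon lengths came from GENCODE M21 (GRCm38).

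Counts were tested with edgeR 4.0.16 in R 4.3.3 (filterByExpr, minimum count 10, TMM, quasi-likelihood F-test, group only) on the whole table. The SE was taken as |log2 fold change|/√F, and intervals use the test's degrees of freedom. Log2 CPM used a prior count of 2. Exact permutation tests used scipy 1.17.1 in Python 3.11.15. Alternatives were other scalings, filters and tests (DESeq2 1.42.0, limma 3.58.1), FPKM, a replicate block and leaving out each library. The procedure was checked on simulated data, with pass limits set only at a spread far below that of these data. The biological coefficient of variation (spread between libraries beyond counting error) was 1.11 here, and 1.03 without LPC day 10 replicate 3. The check therefore does not show which changes could be called in these data. The genes and lists were chosen with earlier results of these data known. Genes named were the 7 receptors, the 2 genes of smallest p in each pathway list (with all libraries and without LPC day 10 replicate 3), the 3 nearest profiles per receptor with a mean of at least 5 CPM (no Gm or Rik symbols; 1 is not reported here), and the most abundant gene of each marker list. Pparg, Gulp1, Pdzk1, Cd163, Mbp, Lyve1, Cdh5 and Pecam1, and marker genes at 0, were named in addition, after their values were seen.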

Additional observations from a re-analysis of the deposited data

How the results depend on the processing

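Under the 21 alternatives 0 of the 6 tested scavenger receptor genes were called, with a lowest adjusted p of 0.258 (Msr1, DESeq2 without LPC day 10 replicate 3). Msr1 stayed negative in all 21 (−4.23 to −2.05) and Scarb1 positive in all 21 (0.19 to 1.54). Stab1 turned negative in 11: −0.037 with upper-quartile scaling, −0.077 with library size only, −0.96 with limma-voom, −1.89 with sample quality weights, −0.63, −0.69 and −0.63 with limma-trend on FPKM plus 1, plus 0.1 and plus 1 with a filter, −0.68 with the replicate block, −1.57 without LPC day 10 replicate 3, and −1.60 without it in both DESeq2 and RLE scaling (0.82 at the other end when 1 library was left out). Cd36 turned positive with limma-voom (0.44), sample quality weights (1.31) and FPKM plus 0.1 (0.25), and ran from −3.03 to 4.30 when 1 library was left out. Cd14 ran from −0.26 to 1.01 and Cd68 from −0.59 to 0.052 in the same way, and Cd68 was 0.017 in DESeq2 and with RLE scaling without LPC day 10 replicate 3. RLE scaling shifted the median over all genes by 0.13. The cause of these changes was not tested.

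Over all genes, 12 were called higher and 0 lower. The number higher was 0 with RLE scaling, library size only, limma-voom, each limma-trend fit on FPKM and the replicate block. It was 113 with no low-count filter, 20 with a filter of 1 CPM in 3 libraries, 45 in DESeq2, 2 with sample quality weights, 1 to 208 when 1 library was left out, and 40 and 1 in DESeq2 and with RLE scaling without LPC day 10 replicate 3. The number lower was 5 with no filter, 1 with the CPM filter, 19 in DESeq2, 1 in limma-voom, 1 with weights, 1 in the robust edgeR fit, 0 to 4 when 1 library was left out, and 45 in DESeq2 without LPC day 10 replicate 3. The replicate numbers are not stated to pair the mice. Deviations of same-numbered libraries from their group means correlated at 0.07, −0.04 and 0.01 across genes, so the replicate block has no basis in the design. With counts as low as 0 to 187 for Cd36, depth limits what its values can show.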

Other observations

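Marco, with no counts, still has a log2 fold change of 0.43 (day 10 against day 3) and an unadjusted p of 0.621 in the authors' deposited table. In the authors' normalized log2 table its values are −4.87, −4.34 and −4.56 in LPC day 3 replicates 1, 2 and 3 and −4.81, −4.76 and −3.41 in LPC day 10 replicates 1, 2 and 3. Every gene at 0 in all libraries has these same values, so among such genes the differences between libraries are those of the library constants. The 5349 genes at 0 in all libraries have log2 fold changes of 0.27 to 0.43 and p of 0.619 to 0.770 in the authors' deposited table. Why these differ between genes of equal normalized values was not tested.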
